A study of Danio rerio with 15 samples.

Results

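The kidney was compared between 7 days after acute kidney injury (7 dpi) and the uninjured state, to describe which genes and functions still differed during recovery. The comparison used 6 of the 15 samples of the series, 3 kidney samples at 7 dpi and 3 uninjured samples, chosen by their labels alone. All came from zebrafish of the AB strain at 6 months of age. The samples at 7 dpi came from fish that had received the nephrotoxic antibiotic gentamicin into the abdominal cavity. The study kept only injected fish that passed protein in the urine on the next day. The labels call the uninjured samples control and do not say whether those fish received a sham injection. The other 9 samples, 3 each at 1, 3 and 5 dpi, are used below only to place the values at 7 dpi in time. Polyadenylated RNA of the dissected organ was sequenced, and neither the labels nor the methods say how many fish were in a sample, so the p-values measure only the spread between these samples.

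The adult zebrafish kidney is a mesonephros. Its nephrons filter blood in a capsule lined by podocytes, the proximal tubule takes back sugars, amino acids, phosphate and filtered protein through apical transporters and endocytic receptors, and distal segments adjust the salts. The tissue between the nephrons is also the main site of blood formation in the fish. After injury the tubules of the fish are repaired and, unlike in mammals, new nephrons form from progenitor cells that express the transcription factor lhx1a, a process for which Wnt signals are required.

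The table held 5686 genes, of which 5685 were above 0 FPKM (fragments per gene length and library size, a level that allows for both) in at least 3 of the 15 samples and were tested. The table holds only a selection of the genes that were counted, so the adjusted p-values and shares below refer to the listed genes and not to the genome. The reads behind the FPKM, recovered from the step size of the values, came to 15231000 to 16090000 per library at 7 dpi and 13876000 to 15102000 in uninjured kidneys, and the listed genes took 19.4% to 20.5% and 24.8% to 26.1% of them. The 4 tubule markers that the table lists (slc22a2, slc20a1a, cubn and lrp2a) were present in every library, with a summed level of 148 to 176 FPKM at 7 dpi and 503 to 987 FPKM in uninjured kidneys. Other tissue was present too: 6 oocyte markers summed to 52.6, 48.1 and 84.1 FPKM at 7 dpi, against 346, 0.81 and 540.1 FPKM in uninjured kidneys, with gdf9 at 0 FPKM in uninjured replicate 2. The list of 25 pancreas genes and the list of 37 liver genes were highest in uninjured replicate 1. In a principal component analysis of the 6 samples, uninjured replicate 2 lay with the samples at 7 dpi on the first component (48.4% of the variance) and apart from all 5 others on the second component (30.7%). List counts below are therefore also given with each uninjured sample left out in turn. Those counts join both directions unless they are split.

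**Figure D1:**
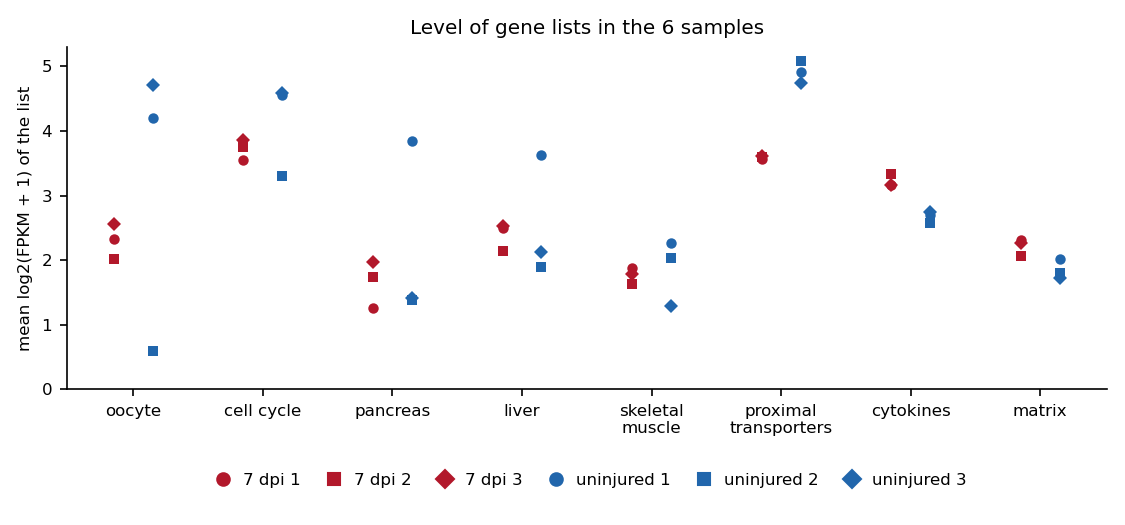
Mean log2(FPKM + 1) of the members of 8 gene lists in the 3 samples at 7 dpi (red) and the 3 uninjured samples (blue), with the replicate number as the symbol. The proximal transporters were lower and the cytokines and matrix genes were higher in each of the 3 samples at 7 dpi than in any uninjured sample, whereas the oocyte list ran between 2.01 and 2.56 at 7 dpi and between 0.59 and 4.71 in uninjured kidneys.

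At 7 dpi, 975 of the 5685 genes differed from uninjured kidneys (17.2%; limma on log2(FPKM + 1), adjusted p below 0.05). Of these, 272 were higher (4.78% of all genes tested) and 703 were lower (12.4%), and for all 975 the 3 samples at 7 dpi did not overlap with the 3 uninjured samples. Among all genes, 861 (15.1%) lay above and 1557 (27.4%) lay below the uninjured samples without overlap. The log2 change was at least 1 in size for 147 of the genes that were higher (2.59% of all genes tested) and for 419 of those that were lower (7.37%). The median log2 change of all genes was -0.22, and it was -0.11 under median-of-ratios scaling and -0.06 under quantile normalization. The balance of directions moved with that shift, from 27.9% of calls higher in the values as deposited to 340 higher and 382 lower (47.1% higher) under median-of-ratios scaling, and to 358 higher and 215 lower (62.5% higher) under quantile normalization. The counts rested on all 6 samples. The number of called genes was 0, 7 and 0 without 7 dpi replicate 1, 2 and 3, with 1626, 1603 and 1694 genes at an unadjusted limma p below 0.05, and no gene list described below then had more than 5 called members. Without uninjured replicate 1, 2 and 3 the counts were 153 (34 higher, 119 lower), 1916 (320 higher or 5.63%, 1596 lower or 28.1%) and 456 (76 higher, 380 lower).

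Gene lists were drawn up for the tissue and the injury with earlier results of these data known, and 300 of the 975 called genes were on at least 1 of 31 lists. Each list is described by how many of its members were called in each direction, beside the shares of all genes given above, and by its median log2 change, beside the median of -0.22 for all genes. In whole-kidney RNA, fewer cells of a type and less RNA per cell cannot be told apart.

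**Figure D2:**
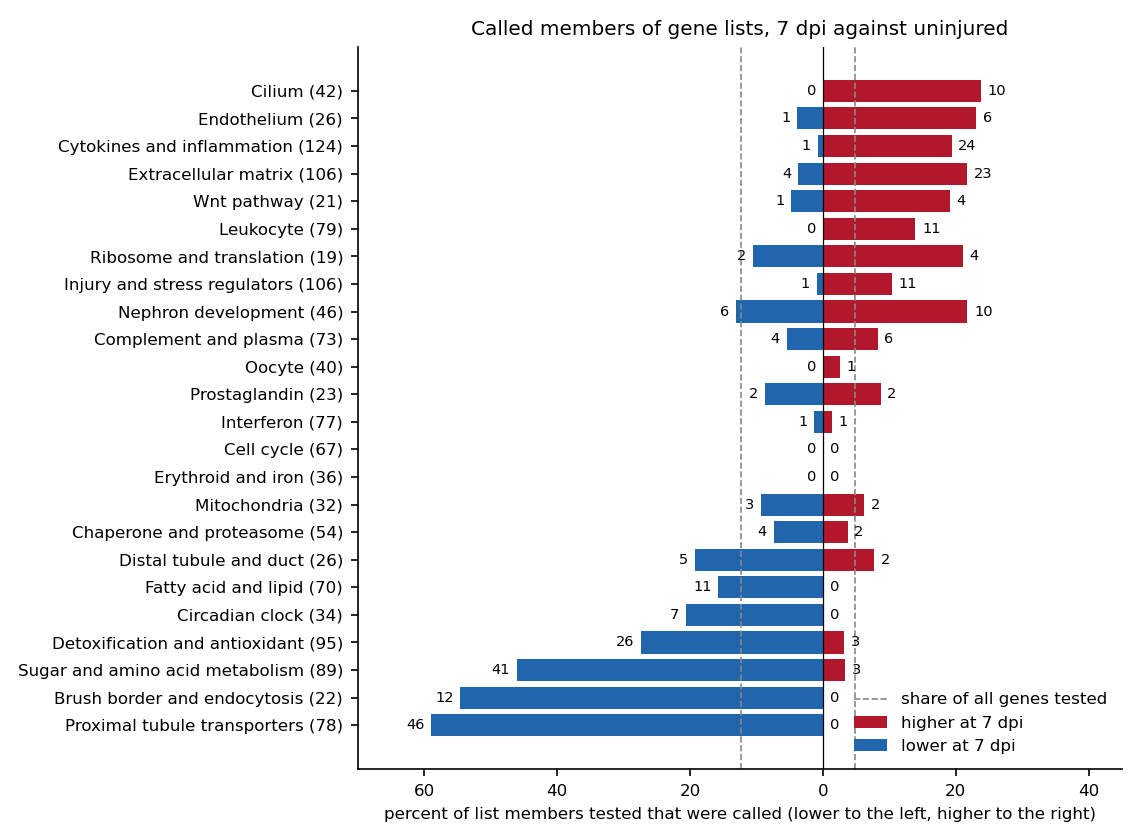
Share of the tested members of 24 gene lists that were called at 7 dpi, higher to the right (red) and lower to the left (blue), with the number of called members at each bar and the number tested in parentheses; dashed lines mark the shares of all genes tested, 4.78% higher and 12.4% lower. The transporter, brush border and metabolism lists extend to the left past the line and the cilium, endothelium, cytokine and matrix lists to the right.

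The largest group that was lower at 7 dpi was that of the proximal tubule transporters. Of 78 tested, 46 were lower and 0 were higher, with a median log2 change of -1.43. The number lower was 36 under median-of-ratios scaling, 31 under quantile normalization and 51 in a fit on all 15 samples. The called members numbered 16, 54 and 36 without uninjured replicate 1, 2 and 3. Among called genes with a named symbol (not a clone or catalogue name such as si: or zgc:), slc6a19b and slc6a19a.2 had the 2 largest falls. Both are of the family that carries neutral amino acids across the apical membrane. The level of slc6a19b, given here and below in the order of replicates 1, 2 and 3, was 18.0, 34.8 and 21.9 FPKM at 7 dpi, against 216, 225 and 177 FPKM in uninjured kidneys (log2 change -3.04, SE 0.27, limma adjusted p = 0.016). The lowest uninjured sample was thus far above the highest sample at 7 dpi. The level of slc6a19a.2 was 3.00, 4.50 and 4.01 FPKM at 7 dpi, against 34.7, 44.3 and 32.5 FPKM in uninjured kidneys (log2 change -2.98, SE 0.21, limma adjusted p = 0.016). Its values at 7 dpi were tightly grouped and none came near the uninjured range. Family counts here and in the next paragraph take only the members on this list of 78 and not whole families. Of 5 such members of the family slc6, 4 were lower. The amino acid carriers slc7a9 (-2.08), slc3a1 (-1.43) and slc1a1 (-1.23) also fell. Of these, slc7a9 and slc3a1 encode the light and the heavy subunit of the cystine transporter. TMEM27, whose mouse protein is needed to bring Slc6a19 to the membrane, was at 159, 285 and 265 FPKM at 7 dpi, against 671, 807 and 426 FPKM in uninjured kidneys (log2 change -1.42, SE 0.34, limma adjusted p = 0.043). Its highest sample at 7 dpi was below its lowest uninjured sample, but its call was lost under median-of-ratios scaling (adjusted p = 0.077) and quantile normalization (adjusted p = 0.072).

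Phosphate, sugar and organic ion transporters were also among the falls. Of the phosphate carriers on the list, 1 of 2 members of slc34 and 1 of 2 of slc20 were lower. The sodium-phosphate cotransporter slc34a1a was at 11.5, 45.8 and 24.1 FPKM at 7 dpi, against 297, 163 and 141 FPKM in uninjured kidneys (log2 change -2.96, SE 0.53, limma adjusted p = 0.024). The 3 samples at 7 dpi spread over several-fold and all lay below the uninjured samples. Another phosphate carrier, slc20a1a, fell by 1.55 on the log2 scale, and slc34a2b (-0.68) and slc20a1b (-0.25) were not called. Of 7 members of the facilitative sugar transporter family slc2 on the list, 6 were lower (median log2 change -1.68). Among them was slc2a2 (-2.08), the low-affinity glucose carrier of the basal side. Of 9 members of the sodium-coupled family slc5 on the list, 6 were lower (median -1.65). They included the apical glucose carrier slc5a2 (-2.15) and the monocarboxylate carriers slc5a12 (-2.41) and slc5a8 (-0.60). Of 7 members of the organic ion family slc22 on the list, 4 were lower. The largest of these falls was that of slc22a6l, named for its likeness to the organic anion transporter of the proximal tubule, at 15.3, 32.1 and 9.66 FPKM at 7 dpi, against 142, 120.1 and 129 FPKM in uninjured kidneys (log2 change -2.87, SE 0.41, limma adjusted p = 0.019). The organic cation transporter slc22a2, which the study used as a marker of proximal tubule cells, was at 139.7, 106 and 135 FPKM at 7 dpi, against 286, 834 and 428 FPKM in uninjured kidneys (log2 change -1.88, SE 0.40, limma adjusted p = 0.033). Its uninjured samples differed widely among themselves and all were above those at 7 dpi, and its adjusted p was 0.064 under median-of-ratios scaling. The exporters of organic cations and conjugates were lower too, with slc47a2 at -1.91, abcc2 at -1.86 and abcc4 at -1.15 on the log2 scale. Of 9 members of the organic anion family slco on the list, 4 were lower and the median was -0.70. The greatest fall among them was that of slco1f4, at 35.2, 80.3 and 24.3 FPKM at 7 dpi, against 173, 403 and 236 FPKM in uninjured kidneys (log2 change -2.60, SE 0.51, limma adjusted p = 0.029). The taurine transporter slc6a6a was at 12.4, 14.1 and 15.1 FPKM at 7 dpi, against 83.7, 172 and 42.0 FPKM in uninjured kidneys (log2 change -2.53, SE 0.49, limma adjusted p = 0.028), with close values at 7 dpi and scattered uninjured values above them.

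Genes of protein uptake and of the brush border were lower as well. Of 22 tested, 12 were lower and 0 were higher (median log2 change -1.20). With uninjured replicate 1, 2 or 3 left out, 6, 14 and 11 members were called. The receptors megalin (lrp2a) and cubilin (cubn) bind filtered proteins for uptake. The level of lrp2a was 4.23, 7.36 and 6.05 FPKM at 7 dpi, against 53.5, 40.2 and 38.8 FPKM in uninjured kidneys (log2 change -2.73, SE 0.24, limma adjusted p = 0.016). The level of cubn was 12.9, 13.2 and 16.7 FPKM at 7 dpi, against 87.4, 59.18 and 67.2 FPKM in uninjured kidneys (log2 change -2.23, SE 0.21, limma adjusted p = 0.016). For both genes each uninjured sample was several times above each sample at 7 dpi. The adaptor dab2, which links such receptors to the endocytic coat, had a log2 change of -1.34. The scaffold proteins pdzk1 and pdzd3a, which hold transporters at the apical membrane, had log2 changes of -1.56 and -1.06. The level of pdzk1 was 63.5, 50.7 and 59.7 FPKM at 7 dpi and 153, 195 and 169.8 FPKM in uninjured kidneys, and that of its binding partner pdzk1ip1 was 67.7, 53.2 and 60.01 FPKM at 7 dpi and 178, 238 and 195 FPKM in uninjured kidneys. The brush border peptidases anpepb (-1.47), ace (-1.44) and dpp4 (-1.38) and the microvillus protein villin (vil1, -1.38) were also lower. The aminoacylase acy1, the other proximal tubule marker of the study that was called, was at 21.7, 19.3 and 17.0 FPKM at 7 dpi, against 44.5, 62.0 and 53.2 FPKM in uninjured kidneys (log2 change -1.41, SE 0.19, limma adjusted p = 0.017).

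**Figure D3:**
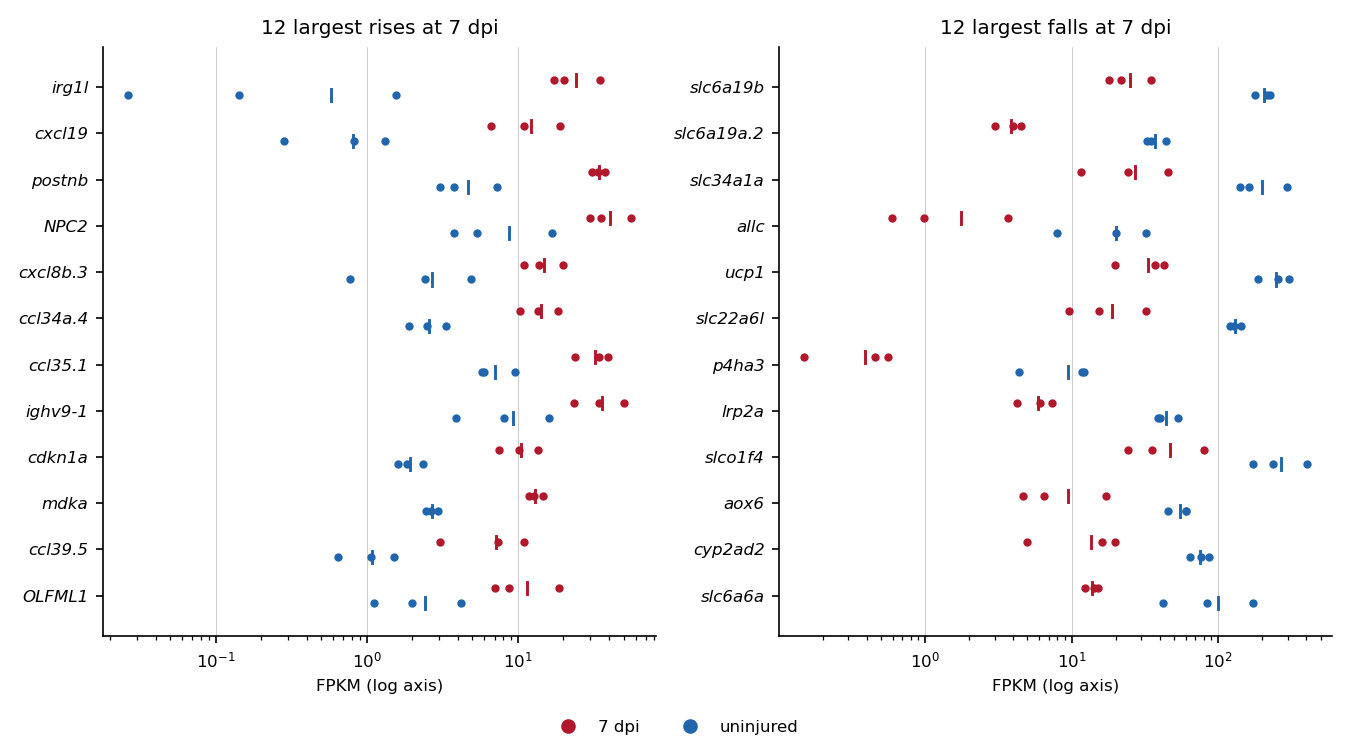
FPKM on a log axis of the 12 largest rises and the 12 largest falls at 7 dpi among called genes with a named symbol and no overlap. Each sample is a point (red for 7 dpi, blue for uninjured) and the mean of each group is a bar. For each of the 24 genes the 3 samples at 7 dpi lie clear of the 3 uninjured samples.

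Many enzymes of sugar and amino acid metabolism were lower. Of 89 tested, 41 were lower and 3 were higher (median log2 change -0.92). The number lower was 27 under median-of-ratios scaling and 17 under quantile normalization. Leaving out uninjured replicate 1, 2 and 3 gave 12, 51 and 30 called members. Gluconeogenesis, which the proximal tubule carries out besides the liver, was represented by glucose-6-phosphatase (g6pca.2), at 22.8, 31.5 and 21.1 FPKM at 7 dpi, against 76.3, 104 and 131 FPKM in uninjured kidneys (log2 change -1.99, SE 0.26, limma adjusted p = 0.017). Its uninjured samples were all above those at 7 dpi. The gluconeogenic enzymes fbp1b and pck2 had log2 changes of -1.42 and -1.23. Among enzymes that break down amino acids, hgd of the tyrosine route was at 4.91, 8.99 and 6.09 FPKM at 7 dpi, against 29.6, 34.3 and 24.5 FPKM in uninjured kidneys, and pah (-1.35) and fah (-1.11) of the same route were lower too. The tryptophan enzymes kynu and haao had log2 changes of -1.82 and -1.56, and GLDC of glycine cleavage had -1.93. The purine enzyme allantoicase (allc) was at 0.593, 3.70 and 0.989 FPKM at 7 dpi, against 7.89, 32.4 and 20.2 FPKM in uninjured kidneys (log2 change -2.91, SE 0.62, limma adjusted p = 0.032), with scatter in both groups and no overlap. The fatty aldehyde dehydrogenase aldh3a2b was at 10.2, 14.6 and 15.5 FPKM at 7 dpi, against 46.5, 109.5 and 44.8 FPKM in uninjured kidneys. The 3 members that rose are not enzymes of amino acid breakdown alone: aldh1a2, which makes retinoic acid, was at 19.3, 22.2 and 20.2 FPKM at 7 dpi, against 10.0, 5.91 and 6.63 FPKM in uninjured kidneys (log2 change 1.37, SE 0.22, limma adjusted p = 0.021), pfkfb3, a regulator of glycolysis, had a log2 change of 1.30, and bckdhbl, named for a subunit of branched-chain keto acid dehydrogenase, had 0.72.

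Detoxification, peroxisome and lipid genes were lower in part. Of 95 genes of detoxification and antioxidant defence, 26 were lower and 3 were higher (median -0.49), with 13 lower under quantile normalization. The members called were 7, 36 and 21 when uninjured replicate 1, 2 or 3 was left out. The aldehyde oxidase aox6 was at 4.67, 17.3 and 6.48 FPKM at 7 dpi, against 59.997, 60.3 and 45.2 FPKM in uninjured kidneys (log2 change -2.60, SE 0.45, limma adjusted p = 0.023). The cytochrome P450 gene cyp2ad2 was at 4.96, 19.7 and 16.2 FPKM at 7 dpi, against 86.7, 64.1 and 76.5 FPKM in uninjured kidneys (log2 change -2.57, SE 0.48, limma adjusted p = 0.026). In both genes 7 dpi replicate 1 was the lowest of all 6 samples. Catalase (cat), the peroxisomal enzyme that removes hydrogen peroxide, was at 104, 126 and 126 FPKM at 7 dpi, against 342, 393 and 395 FPKM in uninjured kidneys (log2 change -1.66, SE 0.17, limma adjusted p = 0.016), with close values within each group. Selenoprotein P (sepp1a), which carries selenium, had the largest fall of the mean FPKM among called genes with a named symbol. It was at 2192, 2151 and 1886 FPKM at 7 dpi, against 3841, 5096 and 5045 FPKM in uninjured kidneys. Its adjusted p was 0.037 in limma on the values as deposited and 0.12 under median-of-ratios scaling. The 3 members that rose were the peroxiredoxin prdx5 (1.14), the sulfotransferase sult5a1 (1.41) and the cytochrome P450 gene cyp1c2, at 81.5, 53.1 and 66.4 FPKM at 7 dpi, against 18.8, 30.7 and 17.7 FPKM in uninjured kidneys. Of 70 genes of fatty acid and lipid metabolism, 11 were lower and 0 were higher (median -0.45), a share near that of all genes. The called members numbered 2, 21 and 12 without uninjured replicate 1, 2 and 3. The lipid synthesis genes fasn (-1.58), acaca (-1.19) and srebf1 (-1.59) and the genes of fatty acid uptake and peroxisomal oxidation slc27a2b (-1.66) and ehhadh (-1.47) were among them. Of 32 mitochondrial genes, 2 were higher and 3 were lower (15.6% called), a share near that of all genes. Their median of -0.20 changed sign under quantile normalization (0.07). The called mitochondrial genes numbered 1, 9 and 2 without uninjured replicate 1, 2 and 3. The uncoupling protein ucp1, a proton carrier of brown fat in mammals, was at 19.8, 37.0 and 42.9 FPKM at 7 dpi, against 187, 256 and 303 FPKM in uninjured kidneys (log2 change -2.91, SE 0.34, limma adjusted p = 0.016).

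Transcription factors of the tubule were among the falls. The factor hnf4a is required for proximal tubule differentiation in mice. The level of hnf4a was 6.86, 7.19 and 4.73 FPKM at 7 dpi, against 20.5, 22.0 and 15.2 FPKM in uninjured kidneys (log2 change -1.48, SE 0.23, limma adjusted p = 0.02). Its groups did not overlap. The iroquois factors irx3b (-1.60) and irx1a (-1.24) fell, and irx1a lost its call under median-of-ratios scaling (adjusted p = 0.063). Of 26 genes of the distal tubule and collecting duct, 5 were lower and 2 were higher (median -0.61), but 1 was lower under median-of-ratios scaling and 0 under quantile normalization. The called members numbered 0, 10 and 4 without uninjured replicate 1, 2 and 3. The anion exchanger slc4a2a was at 46.1, 26.9 and 39.3 FPKM at 7 dpi, against 104, 114 and 70.6 FPKM in uninjured kidneys, and the potassium channel kcnj16 was at 20.4, 21.2 and 28.1 FPKM at 7 dpi, against 48.6, 56.7 and 38.9 FPKM in uninjured kidneys. The members that rose were the tight junction gene cldnb, at 40.8, 33.9 and 43.0 FPKM at 7 dpi, against 24.3, 20.2 and 17.5 FPKM in uninjured kidneys (log2 change 0.90, SE 0.19, limma adjusted p = 0.031), and fxyd6l (0.92), of a family that regulates the sodium pump. The cotransporter genes slc12a1 and slc12a3 and the sodium pump gene atp1a1a.4 were not among the listed genes. The study used slc12a3 and atp1a1a.4 as markers of distal tubule cells.

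Cytokines and other inflammation genes were called mostly in the higher direction. Of 124 tested, 24 were higher and 1 was lower (median log2 change 0.50). The number higher was 29 under median-of-ratios scaling and 29 under quantile normalization. With uninjured replicate 1, 2 or 3 left out, 4, 31 and 11 members were called, and the 31 were 25 higher and 6 lower. The largest rise of any gene was that of irg1l, whose mammalian relative makes the antimicrobial metabolite itaconate in macrophages. The level of irg1l was 17.3, 20.3 and 34.7 FPKM at 7 dpi, against 0.144, 0.0264 and 1.57 FPKM in uninjured kidneys (log2 change 4.06, SE 0.44, limma adjusted p = 0.016). The uninjured samples held 1 to 56 reads of it and those at 7 dpi held 699 to 1401 reads. Chemokines, which draw leukocytes, were among the other rises. The level of cxcl19 was 6.60, 19.0 and 10.9 FPKM at 7 dpi, against 0.827, 0.285 and 1.31 FPKM in uninjured kidneys (log2 change 2.79, SE 0.42, limma adjusted p = 0.02). The interleukin-8 relative cxcl8b.3, of a family that draws neutrophils, was at 13.7, 11.04 and 19.996 FPKM at 7 dpi, against 4.87, 0.777 and 2.41 FPKM in uninjured kidneys (log2 change 2.24, SE 0.47, limma adjusted p = 0.032), and cxcl8b.1 (1.59) and the gene listed as CXCL8 (1.70) rose with it. For cxcl19 and cxcl8b.3 each sample at 7 dpi lay above each uninjured sample. Among CC chemokines, ccl34a.4 was at 13.5, 18.4 and 10.4 FPKM at 7 dpi, against 1.90, 2.49 and 3.33 FPKM in uninjured kidneys (log2 change 2.06, SE 0.27, limma adjusted p = 0.017), ccl35.1 was at 39.4, 34.2 and 23.7 FPKM at 7 dpi, against 5.92, 5.77 and 9.55 FPKM in uninjured kidneys (log2 change 2.05, SE 0.28, limma adjusted p = 0.017), and ccl39.5 had a log2 change of 1.86. CC chemokine genes lie in families of near-identical copies, so their values may be shared between copies. The chemokine receptor ccr9a was at 33.5, 43.5 and 31.5 FPKM at 7 dpi, against 10.4, 6.56 and 12.2 FPKM in uninjured kidneys (log2 change 1.82, SE 0.26, limma adjusted p = 0.019). Among the interleukin genes on the list, which also holds il1b, il6 and il13, il11a, il11b, il12ba and il17c rose. Their log2 changes were 0.65, 0.30, 0.63 and 1.18. The member that fell was lifra (-1.01), a receptor for the cytokine Lif. The macrophage marker mpeg1.1 was at 98.9, 157 and 65.2 FPKM at 7 dpi, against 46.0, 57.0 and 60.1 FPKM in uninjured kidneys, and the neutrophil marker mpx was at 288, 366 and 289 FPKM at 7 dpi, against 259, 326 and 279 FPKM in uninjured kidneys. The part of leukocyte number in the rises was not tested.

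The gene irg1l had risen neighbours on chromosome 14. This was noticed after the values were seen. The 5 largest rises of all 5685 genes were those of irg1l and of 4 genes within 80.3 kb of it, and all 5 were called. The table places irg1l on the minus strand from 11121038 to 11124596 and zgc:174917, the farthest of the 4, on the minus strand from 11198896 to 11201331. GRCz11 is the only build that the submitters' processing notes name. Next to irg1l lies si:ch211-153b23.3, which the table describes as like threonylcarbamoyl-AMP synthase, at 10.6, 14.3 and 23.5 FPKM at 7 dpi, against 0.0439, 0.0202 and 0.643 FPKM in uninjured kidneys (log2 change 3.76, SE 0.35, limma adjusted p = 0.016). The gene si:ch211-153b23.4, with a like description, was at 7.65, 9.19 and 16.3 FPKM at 7 dpi, against 0.207, 0.212 and 0.788 FPKM in uninjured kidneys (log2 change 3.06, SE 0.33, limma adjusted p = 0.016). The gene si:ch211-153b23.5, described as a mitochondrial ES1 homolog, was the most abundant of the 5, at 61.0, 57.8 and 76.8 FPKM at 7 dpi, against 1.98, 3.06 and 7.11 FPKM in uninjured kidneys (log2 change 3.83, SE 0.39, limma adjusted p = 0.016). The gene zgc:174917, with a phytanoyl-CoA hydroxylase domain, was at 7.78, 9.80 and 12.1 FPKM at 7 dpi, against 0.153, 0.0937 and 0.149 FPKM in uninjured kidneys (log2 change 3.25, SE 0.21, limma adjusted p = 0.016). It had 2 to 3 reads in each uninjured library and 177 to 276 reads in each library at 7 dpi. The sixth listed gene within 100 kb, si:ch211-153b23.7, was at 15.8, 27.6 and 13.9 FPKM at 7 dpi, against 9.16, 8.63 and 10.5 FPKM in uninjured kidneys (log2 change 0.89, SE 0.28, limma adjusted p = 0.075). The 6 genes do not overlap in the table's coordinates.

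**Figure D4:**
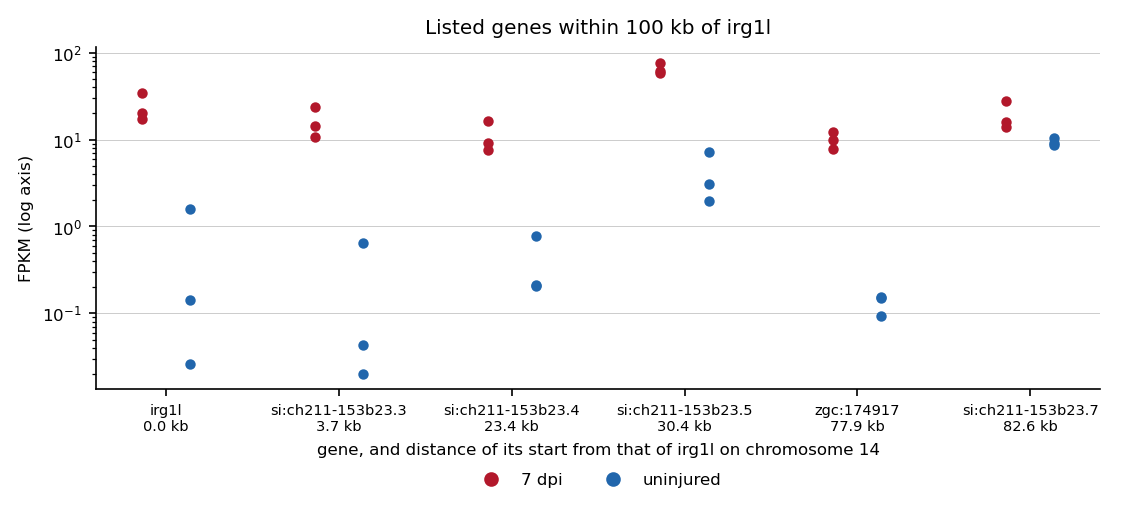
FPKM on a log axis of the 6 listed genes within 100 kb of irg1l in the 3 samples at 7 dpi (red, left) and the 3 uninjured samples (blue, right), with the distance of each gene's start from that of irg1l. The first 5 genes lie clear of the uninjured samples by several-fold, and the sixth by less.

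Matrix genes were called mostly in the higher direction. Of 106 tested, 23 were higher and 4 were lower (median log2 change 0.39). The number higher was 28 under median-of-ratios scaling and 25 under quantile normalization. Leaving out uninjured replicate 1, 2 and 3 gave 8, 37 and 9 called members, and the 37 were 27 higher and 10 lower. Periostin (postnb), a matrix protein of healing tissue, was at 34.0, 31.1 and 37.7 FPKM at 7 dpi, against 7.24, 3.75 and 3.07 FPKM in uninjured kidneys (log2 change 2.70, SE 0.29, limma adjusted p = 0.016). Its lowest sample at 7 dpi was several times its highest uninjured sample. The matrix metalloproteinase gene mmp11a was at 8.99, 10.6 and 11.9 FPKM at 7 dpi, against 2.00, 3.11 and 1.61 FPKM in uninjured kidneys (log2 change 1.85, SE 0.24, limma adjusted p = 0.016), and mmp2 (1.26), mmp14a (1.22) and mmp14b (1.33) rose too. Genes of collagen processing were called in both directions. The gene pcolcea, which speeds the cleavage of procollagen, was at 56.1, 43.2 and 44.8 FPKM at 7 dpi, against 23.6, 13.7 and 12.6 FPKM in uninjured kidneys, and the lysyl hydroxylase plod2 was at 6.75, 6.11 and 7.46 FPKM at 7 dpi, against 1.69, 2.09 and 1.42 FPKM in uninjured kidneys (log2 change 1.51, SE 0.19, limma adjusted p = 0.016). The cross-linking enzyme loxa had a log2 change of 1.09. Fibronectin (fn1a, 0.90), the collagens col5a2a (1.25) and col6a1 (1.11) and the microfibril proteins mfap2 (1.41) and mfap5 (1.41) rose. Of the interstitial cell genes that the study named, dcn was at 32.99, 23.8 and 30.6 FPKM at 7 dpi, against 16.8, 9.98 and 8.12 FPKM in uninjured kidneys (log2 change 1.30, SE 0.29, limma adjusted p = 0.036) and emilin1a was at 29.3, 23.4 and 20.3 FPKM at 7 dpi, against 10.6, 11.9 and 6.27 FPKM in uninjured kidneys (log2 change 1.28, SE 0.27, limma adjusted p = 0.033), and both were called. The other 3 were not called: col1a2 was at 16.2, 9.93 and 17.8 FPKM at 7 dpi and 18.4, 8.10 and 5.16 FPKM in uninjured kidneys, col1a1b was at 13.4, 6.55 and 15.1 FPKM at 7 dpi and 10.98, 5.48 and 4.45 FPKM in uninjured kidneys, and fabp10a was at 144, 72.2 and 55.5 FPKM at 7 dpi and 134, 26.4 and 39.8 FPKM in uninjured kidneys. In each of these 3 the groups overlapped, with adjusted p-values in limma of 0.40, 0.28 and 0.49. The gene fabp10a is also on the liver list, which was highest in uninjured replicate 1, and the part of liver RNA in its values was not tested. The 4 members that fell were p4ha3, a subunit of collagen prolyl 4-hydroxylase, at 0.563, 0.456 and 0.150 FPKM at 7 dpi, against 4.37, 11.8 and 12.1 FPKM in uninjured kidneys (log2 change -2.81, SE 0.39, limma adjusted p = 0.018), and col4a6 (-1.36), col4a5 (-0.89) and lama5 (-0.88), which encode chains of basement membrane collagen and laminin. The calls of col4a5 and lama5 were lost under both scalings (adjusted p from 0.053 to 0.13).

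Leukocyte genes were called in the higher direction alone. Of 79 tested, 11 were higher and 0 were lower (median log2 change 0.67). The members called were 1, 12 and 4 when uninjured replicate 1, 2 or 3 was left out. The heavy chain segment ighv9-1 was at 23.4, 50.7 and 34.3 FPKM at 7 dpi, against 16.0, 8.04 and 3.87 FPKM in uninjured kidneys (log2 change 1.96, SE 0.51, limma adjusted p = 0.049), with 1 uninjured sample near the lowest sample at 7 dpi. The light chain segments igl3v1 and igl3v5 had log2 changes of 1.79 and 1.79, and such segments resemble each other in sequence. The class II invariant chain cd74a was at 1374, 1585 and 1178 FPKM at 7 dpi, against 736, 628 and 834 FPKM in uninjured kidneys (log2 change 0.91, SE 0.23, limma adjusted p = 0.046). The perforin gene prf1.8 rose by 1.68 on the log2 scale, and itgb7, an integrin of homing lymphocytes, by 1.11. NPC2, which moves cholesterol out of lysosomes, was on no list and was the fourth largest rise among called genes with a named symbol. It was at 29.9, 55.7 and 35.4 FPKM at 7 dpi, against 3.77, 5.39 and 16.9 FPKM in uninjured kidneys (log2 change 2.29, SE 0.53, limma adjusted p = 0.038). Of 73 complement and plasma genes, 6 were higher and 4 were lower (13.7% called, against 17.2% of all genes). Their median log2 change of -0.21 was near that of all genes. The number called was 3, 12 and 7 without uninjured replicate 1, 2 and 3. The terminal complement genes c7a (1.59) and c6 (1.31), the haemoglobin-binding protein hp (1.35) and the copper carrier cp (1.48) rose. The complement genes c8a (-1.65) and c3a.6 (-1.53), the transport protein ttr (-1.36) and prothrombin (f2, -1.48) fell. The liver list, which shares several of these, had 1 higher and 5 lower of 37 (16.2% called, near the share of all genes). Without those samples in turn, 1, 6 and 4 of the liver list were called, and its part in the falls was not tested.

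Growth factor and stress genes were raised in smaller numbers. Of 106 regulators of injury and stress, 11 were higher and 1 was lower (median 0.10). The called members numbered 1, 19 and 5 without uninjured replicate 1, 2 and 3, and the 19 were 13 higher and 6 lower. The cell cycle inhibitor cdkn1a was at 7.55, 10.2 and 13.5 FPKM at 7 dpi, against 1.60, 1.85 and 2.37 FPKM in uninjured kidneys (log2 change 1.93, SE 0.25, limma adjusted p = 0.016). The stress genes gadd45aa (0.88) and gadd45bb (0.97) and the cytokine signal inhibitor socs3a (1.44) rose, as did anxa1a (1.24), whose protein limits inflammation in mammals. The growth factor tgfb3 was at 6.46, 5.93 and 6.01 FPKM at 7 dpi, against 2.12, 2.36 and 2.07 FPKM in uninjured kidneys (log2 change 1.17, SE 0.17, limma adjusted p = 0.019), with close values in both groups. The growth factor midkine (mdka) was at 12.7, 14.6 and 11.9 FPKM at 7 dpi, against 2.68, 2.97 and 2.47 FPKM in uninjured kidneys (log2 change 1.92, SE 0.17, limma adjusted p = 0.016). The samples of each group lay close together, with a wide gap between the groups. The epidermal growth factor receptor egfra was the member that fell (-1.21).

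Genes of the endothelium list were called mostly in the higher direction. The list also held growth factors and receptors that are not particular to endothelium, such as pdgfaa and pdgfra. The endothelial markers kdrl, cdh5 and pecam1 were not among the listed genes. Of 26 tested, 6 were higher and 1 was lower (median 0.63). With uninjured replicate 1, 2 or 3 left out, 0, 7 and 3 members were called. The tight junction gene cldn5b was at 36.6, 19.5 and 18.6 FPKM at 7 dpi, against 5.03, 6.27 and 6.88 FPKM in uninjured kidneys (log2 change 1.82, SE 0.30, limma adjusted p = 0.022), with 7 dpi replicate 1 the highest. The receptor s1pr1, which steadies vessels, was at 8.40, 5.39 and 8.62 FPKM at 7 dpi, against 2.57, 2.76 and 1.95 FPKM in uninjured kidneys (log2 change 1.29, SE 0.24, limma adjusted p = 0.025). The matrix protein mmrn2a (1.08), the receptor acvrl1 (0.98) and the growth factor pdgfaa (1.27), which acts on mesenchymal cells through pdgfra (0.90), rose as well. The member that fell was nostrin (-0.90), a regulator of nitric oxide synthase traffic, and its adjusted p was 0.060 under median-of-ratios scaling.

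Genes of nephron formation and of the Wnt pathway were called in both directions. Of 46 genes of nephron development, 10 were higher and 6 were lower (median 0.21). Leaving out uninjured replicate 1, 2 and 3 gave 2, 22 and 5 called members, and the 22 were 10 higher and 12 lower. The ligand wnt4a, needed for the mesenchymal to epithelial transition of nephron progenitors in mice, was at 1.83, 1.38 and 1.64 FPKM at 7 dpi, against 0.289, 0.620 and 0.345 FPKM in uninjured kidneys (log2 change 0.89, SE 0.15, limma adjusted p = 0.022). The transcription factor sox11a was at 3.54, 3.42 and 3.51 FPKM at 7 dpi, against 1.25, 1.61 and 1.20 FPKM in uninjured kidneys (log2 change 0.94, SE 0.17, limma adjusted p = 0.024). Both genes were low in level, and their groups did not overlap. The ligand fgf8a (0.90), the Notch target hey1 (0.78), the transcription factors osr2 (0.79) and hoxc9a (0.94) and the adhesion genes cdh2 (0.93) and cdh6 (0.84) rose. The Wnt receptor fzd2 was at 18.2, 12.7 and 15.7 FPKM at 7 dpi, against 7.27, 7.52 and 6.75 FPKM in uninjured kidneys (log2 change 1.00, SE 0.18, limma adjusted p = 0.024), while the receptor fzd5 fell (-1.01) and lost its call under both scalings. Of 21 genes of the Wnt pathway, 4 were higher and 1 was lower. Without uninjured replicate 1, 2 and 3, 0, 10 and 1 were called, and the 10 were 5 higher and 5 lower. The rises included the secreted modulator sfrp1a (0.96) and the Wnt target sp5l. The level of sp5l was very low in all 6 samples, at 0.212, 0.319 and 0.454 FPKM at 7 dpi, against 0, 0.0644 and 0.0343 FPKM in uninjured kidneys. The progenitor marker lhx1a was at 2.19, 2.98 and 5.20 FPKM at 7 dpi and 1.35, 1.67 and 1.06 FPKM in uninjured kidneys (log2 change 0.87, SE 0.29, limma adjusted p = 0.085). Its 3 samples at 7 dpi lay above the 3 uninjured samples, with an exact permutation p of 0.1, the smallest that 3 against 3 samples allow. The Wnt target lef1 was at 0.812, 0.835 and 1.05 FPKM at 7 dpi and 2.83, 0.592 and 2.25 FPKM in uninjured kidneys, and wnt4b was at 0.549, 0.277 and 0.175 FPKM at 7 dpi and 0.0289, 0.159 and 0.169 FPKM in uninjured kidneys. Neither was called (limma adjusted p = 0.32 and 0.21), and uninjured replicate 2 had the lowest lef1 of all 6 samples.

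Podocyte, cilium and prostaglandin lists differed in the share of their members that was called. Of 6 podocyte and renin genes, 2 were higher and 1 was lower, and 0, 3 and 1 were called without uninjured replicate 1, 2 and 3. The transcription factor wt1a, a podocyte gene that also marks nephron progenitors, was at 12.8, 11.7 and 13.7 FPKM at 7 dpi, against 6.65, 5.97 and 4.84 FPKM in uninjured kidneys (log2 change 1.02, SE 0.18, limma adjusted p = 0.024), and its paralog wt1b had a log2 change of 0.95. Of 42 cilium genes, 10 were higher (23.8%, against 4.78% of all genes) and 0 were lower (median log2 change 0.55). The members called were 0, 13 and 2 when uninjured replicate 1, 2 or 3 was left out, and the 13 were 10 higher and 3 lower. Genes that build or move motile cilia were among them, such as the dynein assembly factor dnaaf1 (0.66), the dynein chain gene dnai1.2 (0.70), the radial spoke gene RSPH1 (0.89) and CCNO (0.60), which in mammals is required to make many cilia per cell. The largest of the rises was that of meig1, at 18.3, 13.2 and 14.5 FPKM at 7 dpi, against 5.27, 6.54 and 5.80 FPKM in uninjured kidneys (log2 change 1.24, SE 0.19, limma adjusted p = 0.02), a gene that the testis also uses. The spermatogenic list had 0 higher and 1 lower of 19 members (8 called without uninjured replicate 2). It shares odf3b, ropn1l, spata4, tekt3 and ODF3L2 with the cilium list, so the lists are not independent. Its marker odf3b was at 9.05, 7.23 and 7.04 FPKM at 7 dpi and 6.39, 5.20 and 9.16 FPKM in uninjured kidneys. The spermatogenic markers sycp3 and tekt1 were not among the listed genes. Of 23 prostaglandin genes, 2 were higher and 2 were lower, a share near that of all genes, and 0 were lower under either scaling. Without uninjured replicate 1, 2 and 3 the called members numbered 1, 7 and 1. The cyclooxygenase ptgs2a, the rate-limiting enzyme of prostaglandin synthesis that the study calls cox2a, was at 0.943, 0.941 and 0.865 FPKM at 7 dpi, against 0.364, 0.223 and 0.148 FPKM in uninjured kidneys (log2 change 0.63, SE 0.11, limma adjusted p = 0.022). Its groups did not overlap (exact permutation p = 0.1, the smallest possible). The prostacyclin synthase ptgis was at 1.60, 1.72 and 1.57 FPKM at 7 dpi, against 0.428, 0.787 and 0.767 FPKM in uninjured kidneys (log2 change 0.67, SE 0.15, limma adjusted p = 0.034). The prostaglandin receptor ptger2b was at 3.65, 1.72 and 2.16 FPKM at 7 dpi and 1.52, 1.59 and 1.24 FPKM in uninjured kidneys and was not called (limma adjusted p = 0.20). A list of 13 genes held those that the study names and the table lists, with ptger2b and wnt4b added as relatives of such genes. Of these 13 genes, 6 were called, ptgs2a, wnt4a, dcn and emilin1a higher and slc22a2 and acy1 lower. The study chose its genes on these samples in part, so this count is not independent of the data.

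Among called genes with a named symbol, the largest rises in FPKM itself were those of abundant genes. The ribosomal protein genes rps23, rps18 and rpl36 were at 1724, 1775 and 1788 FPKM at 7 dpi, against 833, 1006 and 1027 FPKM in uninjured kidneys, at 873, 800.3 and 829.5 FPKM at 7 dpi, against 463, 533 and 501 FPKM in uninjured kidneys and at 570.2, 577 and 591 FPKM at 7 dpi, against 304, 353 and 376 FPKM in uninjured kidneys. Their log2 changes were 0.89, 0.74 and 0.75, and all 3 calls were lost under both scalings (adjusted p from 0.052 to 0.32). The calcium-binding protein s100a10b was at 830.4, 859.6 and 584 FPKM at 7 dpi, against 313, 366 and 333 FPKM in uninjured kidneys (log2 change 1.15, SE 0.22, limma adjusted p = 0.028) and kept its call under both. Of 19 genes of ribosome and translation, 4 were higher and 2 were lower, but 1 was higher and 0 lower under median-of-ratios scaling, and 0, 10 and 1 were called without uninjured replicate 1, 2 and 3.

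Several lists had a share of called members near or below that of all genes. Of 67 cell cycle genes limma called 0, with 4 at an unadjusted p below 0.05 (median log2 change -0.47), but 37 were lower without uninjured replicate 2, where 28.1% of all genes were lower. The oocyte list behaved alike, with 1 higher of 40 (the tubulin tuba8l3) and 34 lower without that sample. With the mean of the oocyte list as a covariate, 1 cell cycle gene was higher and 3 were lower. Their median log2 change in that fit was -0.17, against -0.145 for all genes. Oocytes store cell cycle transcripts, and the part of ovary RNA in the cell cycle values was not itself tested. Of 36 erythroid and iron genes and 11 genes of the corpuscles of Stannius and interrenal gland, limma called 0, with 2 and 0 at an unadjusted p below 0.05, as were 2051 of all genes (36.1%), and 2 and 3 were called without uninjured replicate 2. Of 77 interferon genes, 1 was higher (irf7, 0.63) and 1 was lower (ifitm5, -0.77), with 0, 4 and 0 called without uninjured replicate 1, 2 and 3. Of 54 chaperone, secretory pathway and proteasome genes, 2 were higher and 4 were lower, and 0, 11 and 3 were called without those samples in turn. The clock list had a share above that of all genes in the values as deposited. Of 34 clock genes, 0 were higher and 7 were lower (20.6%, against 12.4% of all genes lower). The number lower was 3 under median-of-ratios scaling and 2 under quantile normalization. The called clock genes numbered 3, 11 and 3 without uninjured replicate 1, 2 and 3. Among the falls was npas2, at 1.11, 0.783 and 1.11 FPKM at 7 dpi, against 4.65, 4.34 and 4.28 FPKM in uninjured kidneys (log2 change -1.44, SE 0.17, limma adjusted p = 0.016), and another was rorca (-1.29). The time of day at which the kidneys were taken is not given in the sources used here, so time of day and injury cannot be told apart for these genes. The lists of pancreas (1 lower of 25) and skeletal muscle (2 higher and 1 lower of 40) had few calls, with 1 and 5 called without uninjured replicate 2.

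The values at 7 dpi were then set against the earlier days. Against 1 dpi, 2065 genes differed at 7 dpi (36.3%), 686 higher (12.1%) and 1379 lower (24.3%). Of these calls 33.2% were in the higher direction (43.1% under median-of-ratios scaling and 48.5% under quantile normalization). Against 3 dpi, 951 differed (16.7%), 582 higher (10.2%) and 369 lower (6.49%). Of these calls 61.2% were in the higher direction (49.4% under quantile normalization). Against 5 dpi the limma test called 0 genes, with 1277 genes (22.5%) at an unadjusted p below 0.05, and 453 genes were called without 5 dpi replicate 1. Of the 272 genes above the uninjured level at 7 dpi, 147 were also above their level at 1 dpi and 17 were below it, and 29 were above and 15 below their level at 3 dpi. Of the 703 genes below the uninjured level, 4 were above and 270 below their level at 1 dpi, and 9 were above and 91 below their level at 3 dpi. The uninjured samples are common to all changes against uninjured kidneys, so these are read only through the direct tests between days. The 272 and 703 genes were picked on the same samples at 7 dpi that enter those direct tests. Their split above and below an earlier day was therefore tilted in advance, and no conclusion is drawn from it.

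**Figure D5:**
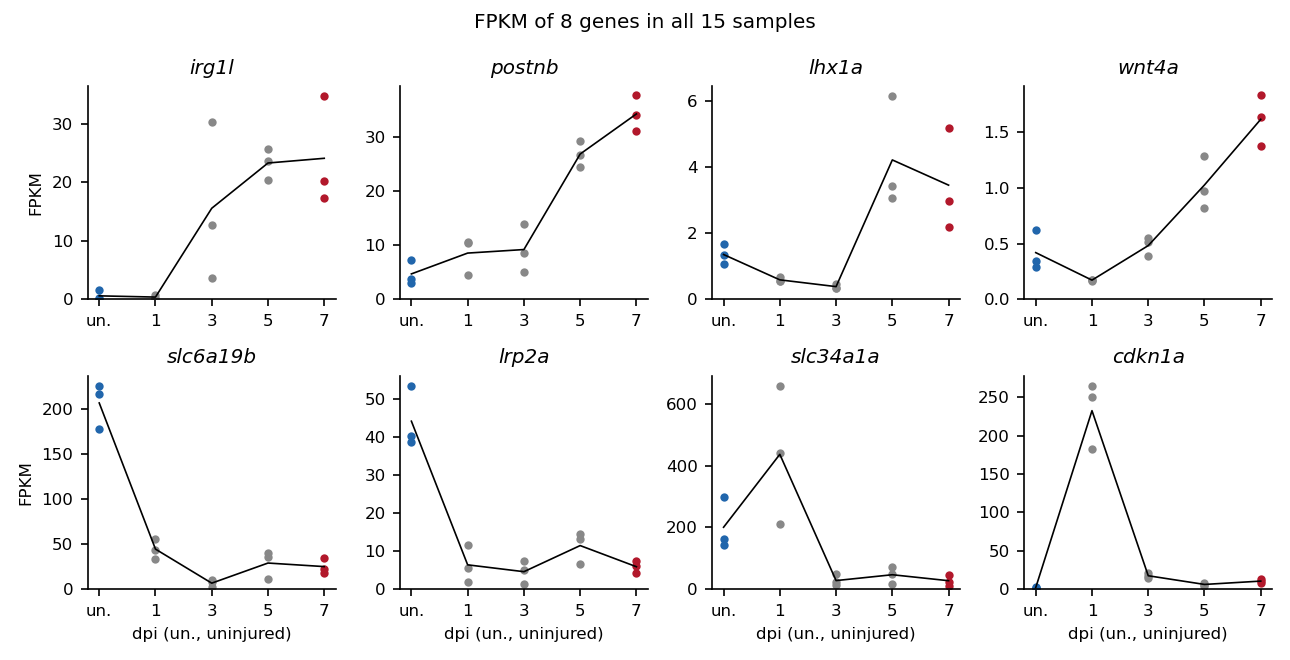
FPKM of 8 genes in all 15 samples, with uninjured kidneys (un.) at the left and days after injury to the right; points are samples (blue, uninjured; grey, 1 to 5 dpi; red, 7 dpi) and the line joins the group means. The genes irg1l, postnb, lhx1a and wnt4a had higher means at 5 and 7 dpi than at 1 dpi, cdkn1a had its highest mean at 1 dpi, and the means of slc6a19b and lrp2a were below the uninjured mean at every day.

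The rises present at 7 dpi came at different times. The level of irg1l was 0.580 ± 0.860 FPKM in uninjured kidneys and 0.371 ± 0.369, 15.6 ± 13.6, 23.3 ± 2.67 and 24.1 ± 9.32 FPKM at 1, 3, 5 and 7 dpi (mean ± SD, n = 3 each). It was higher at 7 dpi than at 1 dpi (log2 difference 4.17, SE 0.34, limma adjusted p = 3.8e-04). The level of postnb was 4.69 ± 2.24 FPKM in uninjured kidneys and 8.54 ± 3.44, 9.19 ± 4.52, 26.9 ± 2.38 and 34.3 ± 3.31 FPKM at the 4 days, and it was higher at 7 dpi than at 3 dpi (log2 difference 1.89, SE 0.33, limma adjusted p = 0.014). The nephron formation genes wnt4a and lhx1a were followed by day. The level of wnt4a was 0.418 ± 0.177 FPKM in uninjured kidneys and 0.171 ± 0.00458, 0.481 ± 0.0854, 1.03 ± 0.239 and 1.61 ± 0.227 FPKM at the 4 days, and at 7 dpi it was above 1 dpi (log2 difference 1.15, SE 0.13, limma adjusted p = 0.0013) and above 3 dpi (0.82, SE 0.13, limma adjusted p = 0.0097). The level of lhx1a was 1.36 ± 0.305 FPKM in uninjured kidneys and 0.588 ± 0.0633, 0.383 ± 0.0759, 4.22 ± 1.70 and 3.46 ± 1.56 FPKM at the 4 days. It differed between 7 and 1 dpi (log2 difference 1.43, SE 0.27, limma adjusted p = 0.0095) and between 7 and 3 dpi (1.63, SE 0.25, limma adjusted p = 0.0093), although it was not called against uninjured kidneys.

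Some genes that still differed at 7 dpi were far past their peak. The level of cdkn1a was 1.94 ± 0.393 FPKM in uninjured kidneys and 233 ± 44.0, 17.4 ± 2.86, 6.06 ± 1.71 and 10.4 ± 2.96 FPKM at 1, 3, 5 and 7 dpi, so that it was lower at 7 dpi than at 1 dpi (log2 difference -4.37, SE 0.26, limma adjusted p = 1.9e-04) and above the uninjured level. The tight junction gene cldnb was 20.7 ± 3.39 FPKM in uninjured kidneys and 182 ± 27.1, 91.6 ± 8.45, 44.6 ± 7.01 and 39.2 ± 4.74 FPKM at the 4 days (7 against 1 dpi, log2 difference -2.18, SE 0.20, limma adjusted p = 6.0e-04). Falls had their own order. The level of slc6a19b was 206 ± 25.4 FPKM in uninjured kidneys and 44.3 ± 10.98, 6.56 ± 3.94, 28.9 ± 15.7 and 24.9 ± 8.81 FPKM at the 4 days. It was higher at 7 dpi than at 3 dpi (log2 difference 1.90, SE 0.48, limma adjusted p = 0.039) and remained below the uninjured level. The level of slc34a1a was 200.4 ± 84.5 FPKM in uninjured kidneys and 437 ± 224, 27.6 ± 18.4, 46.5 ± 28.5 and 27.1 ± 17.3 FPKM at the 4 days, and it was lower at 7 dpi than at 1 dpi (log2 difference -4.01, SE 0.58, limma adjusted p = 0.0034). The level of g6pca.2 was 104 ± 27.4 FPKM in uninjured kidneys and 632 ± 225, 108 ± 51.3, 60.9 ± 6.75 and 25.1 ± 5.57 FPKM at the 4 days, and it was lower at 7 dpi than at 1 dpi (-4.57, SE 0.29, limma adjusted p = 2.2e-04) and 3 dpi (-1.98, SE 0.34, limma adjusted p = 0.012).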

How the data were processed

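Polyadenylated RNA of whole kidney was sequenced in 15 samples, grouped and numbered from the labels. The authors counted read pairs per gene and deposited FPKM values for the genes in their table. The submitters' processing notes name StringTie 1.3.3b, featureCounts 1.5.0-p3, DESeq2 and the build GRCz11, and the aligner is not given in the sources used here. The reads recovered from the FPKM were whole (within 0.05 of a read) for 100% of genes. The step of each gene was sought so that its reads were whole, so this share is not an independent check. For 12 of the 12 microRNA genes listed, the gene length that came with the recovery equalled the annotated span. The table also gives each gene a group number of the authors, which was not used.

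Values were analysed as log2(FPKM + 1) with limma 3.58.1 in R 4.3.3 (linear model and empirical Bayes with a trend, two-sided, 1 fit per pair of groups) for the genes with a value over 0 in 3 or more of the 15 samples. A gene was called where its adjusted p (Benjamini-Hochberg over all 5685 genes) was below 0.05. Fold changes on this scale understate the change of genes with low values. Single values were tested by exact permutation with scipy 1.17.1. The fitting code was tested on simulated data.

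The members and the 31 gene lists were chosen with earlier results of these data known. The genes named are the 12 largest rises and falls among called genes with a symbol and no overlap, and the 5 called genes with the largest rise and fall of the mean FPKM. They also include up to 4 called members per list and direction, the genes that the study names, and ptger2b and wnt4b. Further genes (other called list members, uncalled members, neighbours of irg1l and genes on no list) were chosen after their values were seen. Alternatives were another pseudocount (0.1), other filters, median-of-ratios and quantile scaling, a fit on all 15 samples, no trend, voom on the recovered reads, an oocyte covariate, the oocyte, pancreas, muscle and spermatogenic genes left out, a replicate block and leaving out each sample. How the authors' counting treated strand and near-identical copies is not given in the sources used here. Some genes of the rule are not reported here.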

Additional observations from a re-analysis of the deposited data

Results flagged for a closer look

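The genes below are a selection, made after the values were seen, from the named genes whose level at 7 dpi differed from an earlier day. The difference was tested directly by limma between the days (log2 difference, 7 dpi minus the earlier day, adjusted p below 0.05). They do not stand for all genes that differed. Groups of 3 samples are too small for a check of single outlying samples.

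Of the genes that were higher at 7 dpi than at 1 dpi, the differences were 4.17 for irg1l, 2.18 for cxcl19, 1.96 for postnb, 1.90 for pvalb8, 1.80 for ighv9-1 and 1.78 for cxcl8b.3. The regulators of nephron formation lhx1a, sox11a and wnt4a differed by 1.43, 1.30 and 1.15. Genes that were lower at 7 dpi than at 1 dpi included g6pca.2 (-4.57), cdkn1a (-4.37), slc34a1a (-4.01), PTGES3L (-2.67), the transcription factor gene hlfa (-2.29) and cldnb (-2.18).

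Against 3 dpi, the genes higher at 7 dpi included slc6a19b (1.90), postnb (1.89), lhx1a (1.63), cxcl19 (1.60), pvalb8 (1.51), sox11a (0.92) and wnt4a (0.82). Those lower at 7 dpi than at 3 dpi included the taurine carrier slc6a6a (-2.05), g6pca.2 (-1.98), aldh3a2b (-1.80), cldnb (-1.21) and slc22a2 (-1.11). The transporter slc6a19b was thus above its level at 3 dpi and slc6a6a and slc22a2 were below theirs, while all of them were below the uninjured level at 7 dpi.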

How the results depend on the processing

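None of the 143 genes picked by the naming rule changed direction under any alternative. The further genes chosen after their values were seen were not part of that count. Against uninjured kidneys, the 975 genes called became 573 under quantile normalization and 566 with a log2 change of at least 1 in addition, and leaving out 1 sample gave 0 to 1916. They numbered 722 to 1315 under the other scalings, filters and fits, with 947 by voom on the recovered reads. Among list counts, the 25 cytokine and inflammation genes became 39 in the fit on all 15 samples, and the 44 sugar and amino acid genes became 22 under quantile normalization. Leaving out 1 sample gave 0 to 31 cytokine and inflammation genes, 0 to 37 matrix genes (27 with all samples), 0 to 54 proximal transporters (46 with all samples) and 0 to 51 sugar and amino acid genes. Against 1, 3 and 5 dpi, leaving out 1 sample gave 1115 to 2150, 342 to 744 and 0 to 453 genes, and the pseudocount of 0.1 gave 1 gene against 5 dpi. Of the 136 genes of the naming rule that were called, 92 kept the call under quantile normalization, 104 under median-of-ratios scaling and 125 by voom. The list median changed sign for the mitochondrial genes under quantile normalization (0.07) and for the erythroid genes with the oocyte covariate (-0.07). The cause of these changes was not tested.

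The replicate numbers were used as a block only as a check. The deviations of samples at 7 dpi and uninjured samples of the same number from their group means had correlations of 0, 0.23 and 0.06. Pairs of unlike number ran from -0.215 to 0.254. With 3 samples a group these correlations cannot decide whether samples of the same number belong together. With the block limma called 0 genes against uninjured kidneys (1801 at an unadjusted p below 0.05), 0 on each of these 4 lists, 1475 against 1 dpi, 525 against 3 dpi and 0 against 5 dpi (1061 at an unadjusted p below 0.05).

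With 3 samples a group, calls rest on few values, and for genes with few reads counting error limits the precision.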

Other observations

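Of the 975 genes called at 7 dpi, 675 were on no list. The genes named here were chosen from these after their values were seen. Among the rises were genes of the contractile cytoskeleton. The actin-binding gene tagln, a marker of smooth muscle and activated fibroblasts in mammals, was at 44.8, 50.2 and 42.1 FPKM at 7 dpi, against 17.4, 10.6 and 11.4 FPKM in uninjured kidneys (log2 change 1.75). The tropomyosin genes tpm4b and tpm4a had log2 changes of 1.70 and 1.30. The chitinase gene chia.6 was at 115, 92.4 and 106 FPKM at 7 dpi, against 28.5, 28.5 and 37.3 FPKM in uninjured kidneys (log2 change 1.71). For tagln and chia.6 all samples at 7 dpi lay far above the uninjured samples. The chemerin receptor gene cmklr1 (1.71), the lysosomal protease gene ctss2.2 (1.17) and gpnmb (1.24), which macrophages of mammals express, rose. The Wnt and Bmp modulator sostdc1a was at 13.9, 8.79 and 13.5 FPKM at 7 dpi, against 3.49, 3.89 and 3.40 FPKM in uninjured kidneys (log2 change 1.48), and the chromatin protein gene hmga2 rose by 1.45 on the log2 scale. The microRNA gene dre-mir-21-1 was at 63.4, 63.9 and 70.2 FPKM at 7 dpi, against 31.2, 31.3 and 23.3 FPKM in uninjured kidneys (log2 change 1.19), in a library of polyadenylated RNA. Which transcript these reads came from was not tested.

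Among the falls on no list were further carriers and enzymes. The monocarboxylate carrier family member slc16a4 was at 9.91, 16.3 and 15.2 FPKM at 7 dpi, against 73.3, 104 and 59.96 FPKM in uninjured kidneys (log2 change -2.43). The bicarbonate carrier slc4a5 (-2.34) and slc6a11b (-2.17), of a family of GABA transporters, were lower too. The histidine-degrading enzyme hal was at 8.15, 10.0 and 13.03 FPKM at 7 dpi, against 40.8, 62.9 and 38.7 FPKM in uninjured kidneys (log2 change -2.07). Other enzymes that fell were ido1 of tryptophan breakdown (-2.15), csad of taurine synthesis (-1.93), the thyroid hormone deiodinase dio1 (-1.74) and etnppl of phosphoethanolamine breakdown (-1.74). The level of etnppl was 8.32, 8.45 and 8.42 FPKM at 7 dpi, against 25.6, 40.4 and 27.0 FPKM in uninjured kidneys, so that its samples at 7 dpi were nearly equal. The RNA-binding protein gene a1cf, whose mammalian relative is a cofactor of RNA editing, had a log2 change of -1.68.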
